A study of Rattus norvegicus with 12 samples.

Results

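Lcn2, Chi3l1, Defa5, Alpl, Hdc and Fcgr2b, 6 genes whose products are known from neutrophils or from the cells that share the blood with them were followed in rats given lipopolysaccharide (LPS). They were taken by symbol from the platform annotation, where each has 1 probe, and make up 6 of the 3939 genes named there. They were chosen on the array and rat log2 ratios at 2 h and 6 h. Every ratio of theirs below is thus a description, and no test of it is read. LPS is the outer membrane glycolipid of Gram-negative bacteria, sensed through Toll-like receptor 4.

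The series holds 12 2-colour arrays of total RNA, and only its title says that the RNA came from blood. Rats 1, 2 and 3 were labelled as given LPS and sampled at 2 h, and rats 2, 4 and 6 as sampled at 6 h. Each rat's RNA met pooled control RNA of the same time on a fluor array and, with the channels exchanged, on a flip array, so the rat is the replicate (n = 3 per time) and its arrays were averaged. How the control rats were treated and how many entered a pool, the strain, sex, age, dose and route are not named by the labels. Nothing says whether rat 2 at 2 h and rat 2 at 6 h are 1 animal, and they were treated as different rats.

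Every value is a log2 ratio of LPS RNA to its control pool, positive where LPS RNA was higher. That direction is likely and not settled: Il1b, an early LPS-induced cytokine, lay between 1.67 and 4.23 on the 12 arrays, and S100a9, Anxa1 and Il1r2 were also above 0 on all 12, fluor and flip alike, whereas Nfkbia, induced by the same pathway, was above 0 on 3. Over all probes a rat's fluor array correlated with its flip array between -0.23 and 0.25. Fluor arrays correlated with one another between 0.45 and 0.65, and flip arrays between 0.38 and 0.66, across rats and times. An array was thus more like others of its labelling than like its partner from the same rat. Every rat mean and call below averages over this split, which limits them, and its cause was not tested. The other reading of the direction multiplies the flip arrays by -1, and its means are given for each gene as those with flip signs turned. Each ratio is taken over a whole RNA sample, so more cells of a type and more RNA per cell cannot be told apart. Ratios hold no level, so the presence of blood cells could not be checked. Mpo, Elane, Ltf, Camp, Csf3r and Cxcr2, which define neutrophils, were not among the named genes measured here.

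Neutrophils carry their proteins in granules laid down in sequence as the cell matures, first primary granules with defensins, then specific granules with lipocalin 2 and chitinase-like proteins, and last secretory vesicles, whose membrane holds alkaline phosphatase and receptors. LPS in the circulation brings mature and then younger neutrophils out of the marrow while lymphocytes leave the blood. Lcn2 encodes lipocalin 2, which binds bacterial siderophores and so withholds iron. Chi3l1 encodes a chitinase-like lectin without enzyme activity. The gene table lists ratNP-1 and ratNP-2, names of rat neutrophil defensins, among the synonyms of Defa5, while DEFA5 of other species is a defensin of intestinal Paneth cells. Alpl encodes tissue-nonspecific alkaline phosphatase, Hdc the enzyme that makes histamine, mainly in mast cells and basophils, and Fcgr2b the inhibitory IgG receptor of B cells and myeloid cells.

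The promoter table of RefSeq (build GRCr8) held 4 of the 6 genes, Lcn2, Chi3l1, Alpl and Hdc. The 250 bases before the start site are shown for Lcn2 and Chi3l1, the pair with the largest ratios, alike at 2 h and of opposite sign at 6 h. Capitals mark matches to the letters searched, on both strands, and the Lcn2 window is chr3:36081781-36082030, minus strand, and that of Chi3l1 chr13:48193589-48193838, plus strand.
Lcn2: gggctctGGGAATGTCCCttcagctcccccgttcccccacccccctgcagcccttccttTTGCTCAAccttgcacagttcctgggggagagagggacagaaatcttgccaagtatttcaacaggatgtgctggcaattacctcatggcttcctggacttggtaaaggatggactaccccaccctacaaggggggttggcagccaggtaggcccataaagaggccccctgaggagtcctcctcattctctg
Chi3l1: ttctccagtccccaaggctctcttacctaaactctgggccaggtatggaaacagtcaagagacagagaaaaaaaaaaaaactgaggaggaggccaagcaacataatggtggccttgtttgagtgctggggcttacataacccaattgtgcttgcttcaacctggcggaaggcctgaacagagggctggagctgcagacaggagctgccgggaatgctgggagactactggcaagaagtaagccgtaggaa

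The letters searched, chosen with the Lcn2 window in view, were GGGA and CC with 4 bases of any kind between (NF-kappaB type), TTNNGCAA (C/EBP type), TTCNNNGAA (STAT type), TGANTCA (AP-1 type), GAGGAA (PU.1 type) and the TATA box TATAAA. In Lcn2 the NF-kappaB type letters matched on both strands at overlapping places, GGGAATGTCC from 243 to 234 bases before the start and GGAATGTCCC from 242 to 233, and the C/EBP type letters matched once, from 191 to 184 bases before it. Of all 33469 promoters cut to the same length 16.4% held the NF-kappaB type letters, 9.22% the C/EBP, 7.67% the STAT, 6.34% the AP-1 and 23.3% the PU.1 type, and 12.9% the TATA box. The windows of Chi3l1 and Alpl held none of these letters, and that of Hdc held the PU.1 type letters once. A match is a run of letters and not a shown binding site, and these letters may lie outside the windows.

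Lcn2 was higher than the control pool at both times. At 2 h the fluor and flip arrays read 0.56 and 0.61 in rat 1, 0.40 and 0.47 in rat 2, and 0.66 and 1.46 in rat 3. At 6 h they read 0.67 and 0.55 in rat 2, 0.77 and 0.44 in rat 4, and 0.57 and 0.67 in rat 6. All 12 arrays lay above 0, as they did for 3.88% of genes, and the flip array of 2 h rat 3 stood apart from the other 11. The mean was 0.69 ± 0.33 at 2 h (SD, n = 3; 1.62-fold) and 0.61 ± 0.0096 at 6 h (1.53-fold), a difference of -0.082 (6 h minus 2 h; SE 0.15) with rats that overlapped between the times. Without that flip array the 2 h mean was 0.56 and the difference 0.052, of the other sign. By the size of its mean Lcn2 was 29th highest of 3939 genes at 2 h and 35th at 6 h. Turning the flip signs put it at -0.15 ± 0.22 at 2 h and 0.059 ± 0.11 at 6 h, where it ranked 3651 and 1292 from the highest.

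The probe of Lcn2 is numbered 2 after that of Csnk2b, which had means of 4.27 at 2 h and 5.10 at 6 h, and 2 before that of Rnf112, with 1.28 and 1.59. The probe between Csnk2b and Lcn2, of the class II gene RT1-Db1, stood at -0.82 and -0.70. On the array where Lcn2 read 1.46 Csnk2b read 2.51, its lowest value of the 12, and where Csnk2b was highest, at 5.75 on the fluor array of 6 h rat 4, Lcn2 read 0.77. Subtracting the median of the 10 nearest probe numbers on each array left Lcn2 at 0.71 at 2 h and 0.56 at 6 h. The labels do not say how probe numbers map onto the slide.

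**Figure D1:**
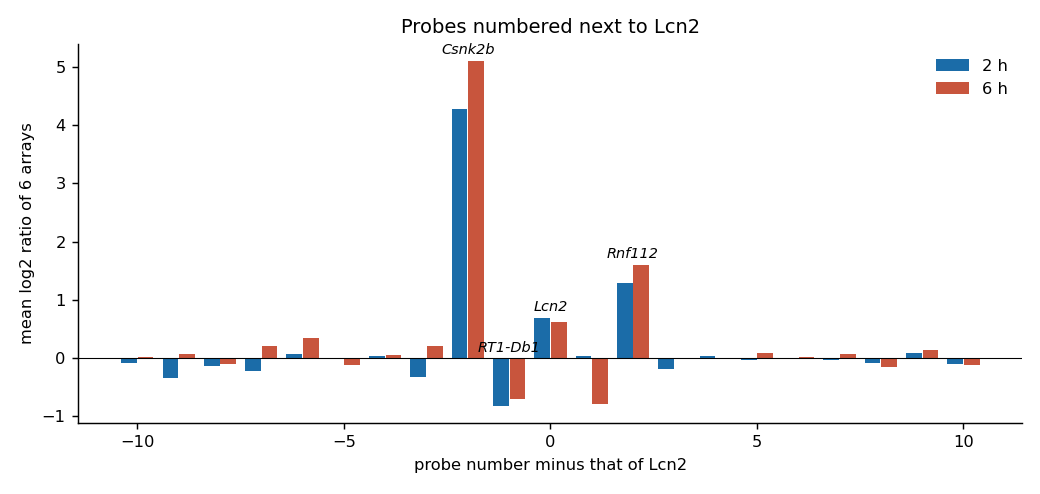
Mean log2 ratio of the 6 arrays of each time (bars, 2 h and 6 h) for the probes numbered up to 10 before and after Lcn2. Csnk2b reaches 4.27 and 5.10 and Rnf112 1.28 and 1.59, RT1-Db1 lies below 0 between Csnk2b and Lcn2, and Lcn2 stands at 0.69 and 0.61.

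Chi3l1 was above its control pool at 2 h and below it at 6 h. At 2 h the fluor and flip arrays read 0.95 and 0.74 in rat 1, 0.44 and 0.55 in rat 2, and 0.67 and 0.074 in rat 3, all above 0 as in 10.6% of genes. At 6 h they read 0.084 and -0.26 in rat 2, -0.27 and -0.71 in rat 4, and -0.41 and -0.63 in rat 6, with 5 of 6 arrays below 0. The mean was 0.57 ± 0.25 at 2 h (1.49-fold) and -0.37 ± 0.24 at 6 h (0.775-fold). The lowest 2 h rat, at 0.37, lay above the highest 6 h rat, at -0.09. The difference of -0.94 (6 h minus 2 h; SE 0.15; a factor of 1.92) was the 5th lowest of 3939 genes, and it was -0.89 by fluor and -0.99 by flip arrays. All 2 h rats above 0 with all 6 h rats below 0 was the pattern of 1.52% of genes. Each time has a control pool of its own, so a difference between the times cannot be told apart from one between the pools. Chi3l1 with flip signs turned stood at 0.12 ± 0.18 and 0.17 ± 0.053, a difference of 0.053.

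Alpl lay near 0 at 2 h and above 0 on every array at 6 h. At 2 h its fluor and flip arrays read -0.012 and 0.15 in rat 1, 0.027 and 0.071 in rat 2, and -0.08 and 0.035 in rat 3. At 6 h they read 0.63 and 0.40 in rat 2, 0.024 and 0.28 in rat 4, and 0.16 and 0.47 in rat 6. The means were 0.033 ± 0.049 and 0.33 ± 0.18 (1.25-fold at 6 h), so the 6 h rats differed more among themselves, from 0.15 to 0.51, than the 2 h rats did. The difference was 0.29 (SE 0.09), 0.29 by fluor and 0.30 by flip arrays, and the rats of the times did not overlap. Without 6 h rat 2 the 6 h mean was 0.23. Alpl with flip signs turned stood at -0.054 ± 0.031 and -0.055 ± 0.15.

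Fcgr2b showed the same order of the times. Its fluor and flip arrays read 0.03 and -0.065 in 2 h rat 1, -0.051 and -0.065 in rat 2, and 0.09 and -0.077 in rat 3, on both sides of 0. At 6 h they read 0.28 and 0.19 in rat 2, 0.071 and 0.25 in rat 4, and 0.12 and 0.56 in rat 6, all above 0. The means were -0.023 ± 0.033 and 0.24 ± 0.091 (1.18-fold at 6 h). The difference was 0.27 (SE 0.056), 0.14 by fluor and 0.40 by flip arrays, and no 2 h rat reached the lowest 6 h rat, at 0.16. Flip signs turned gave means of 0.046 ± 0.038 and -0.085 ± 0.13. Genes above 0 on all 6 arrays of the 6 h rats, as Alpl and Fcgr2b were, made up 10.2% of genes.

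Defa5 had ratios that followed the labelling. At 2 h its fluor arrays read -0.078, 0.0086 and 0.02 in rats 1, 2 and 3, and its flip arrays 0.12, 0.095 and 0.18. At 6 h the fluor arrays read -0.037, 0.026 and 0.015 in rats 2, 4 and 6, and the flip arrays 0.32, 0.30 and 0.38. The flip array lay above the fluor array in all 6 rats, a pattern shared by 19.2% of genes. The means over both arrays were 0.058 ± 0.041 at 2 h and 0.17 ± 0.028 at 6 h (1.12-fold). The 6 h mean was 0.0018 over fluor arrays and 0.34 over flip arrays. Defa5 with flip signs turned stood at -0.074 ± 0.028 and -0.17 ± 0.025, as far from 0 at 6 h as the deposited mean and on the other side. The rats of the times did not overlap in the deposited reading, with a difference of 0.11 (SE 0.042), 0.018 by fluor and 0.20 by flip arrays. The probe numbered 1 before it, Timp2, had means of 1.18 at 2 h and 0.32 at 6 h.

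Hdc was the one gene of the 6 below 0 at 2 h on 5 of 6 arrays. Its fluor and flip arrays read -0.18 and -0.11 in rat 1, -0.29 and -0.19 in rat 2, and -0.16 and 0.056 in rat 3. At 6 h the fluor arrays read -0.12, -0.20 and -0.15 in rats 2, 4 and 6 and the flip arrays 0.069, 0.046 and 0.16. The 6 h values thus split by labelling, below 0 on every fluor and above 0 on every flip array, as in 10.9% of genes. The means were -0.15 ± 0.094 (0.904-fold) and -0.034 ± 0.041 (0.977-fold), with rats that overlapped between the times and a difference of 0.11 (SE 0.058). Hdc with flip signs turned stood at -0.062 ± 0.04 and -0.12 ± 0.028. That reading falls below 0 in any rat whose fluor array lies below its flip array, as in all 6 rats here.

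**Figure D2:**
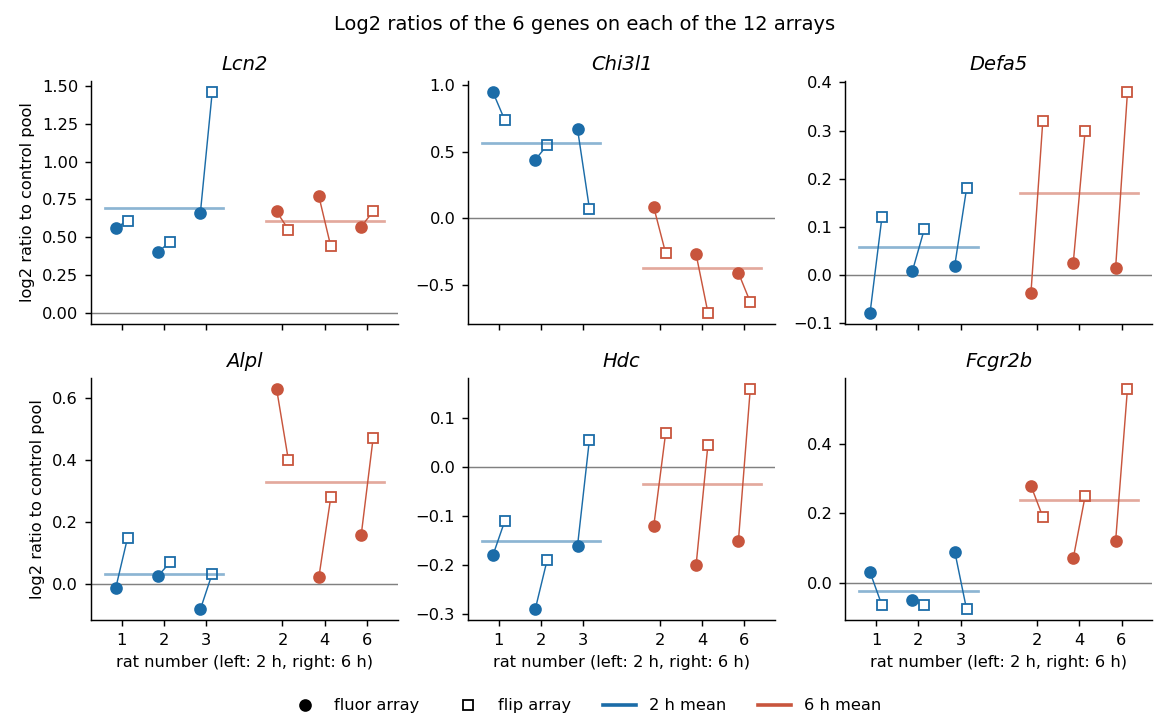
Log2 ratios (LPS over control pool) for the 6 genes on each array, by rat number, with 2 h rats on the left and 6 h rats on the right of each panel, filled circles for fluor and open squares for flip arrays, a thin line joining the arrays of a rat and a pale bar at the mean of each time (vertical scales differ between panels). Lcn2 is above 0 on all 12 arrays, Chi3l1 goes from a mean of 0.57 to -0.37, Alpl and Fcgr2b are above 0 on all 6 h arrays, and for Defa5 and Hdc the flip array is higher in all 6 rats.

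Set beside all genes, whose means spanned, from the 5th to the 95th percentile, -0.26 to 0.27 at 2 h and -0.27 to 0.25 at 6 h, Lcn2 lay outside at both times, Chi3l1 outside at both on opposite sides, and Alpl outside at 6 h. In the limma fit of all 3939 genes, with Benjamini-Hochberg adjusted p under 0.05 as the threshold, 3 of the 6 passed at 2 h, where 19.2% of genes passed. At 6 h 4 passed, where 19.0% of genes passed. For 6 h minus 2 h limma passed 0 of the 6 (4 at an unadjusted p under 0.05) and 0.508% of genes. These contrasts were used in choosing the genes, so nothing is read from the counts. On the values with flip signs turned limma passed 0 of the 6 at 2 h (2 at an unadjusted p under 0.05) and 2 at 6 h, where 14.2% and 37.1% of genes passed. Those counts rest on the same arrays and are not read either. Non-overlapping rats between the times, seen for Chi3l1, Defa5, Alpl and Fcgr2b, were found in 21.7% of genes.

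**Figure D3:**
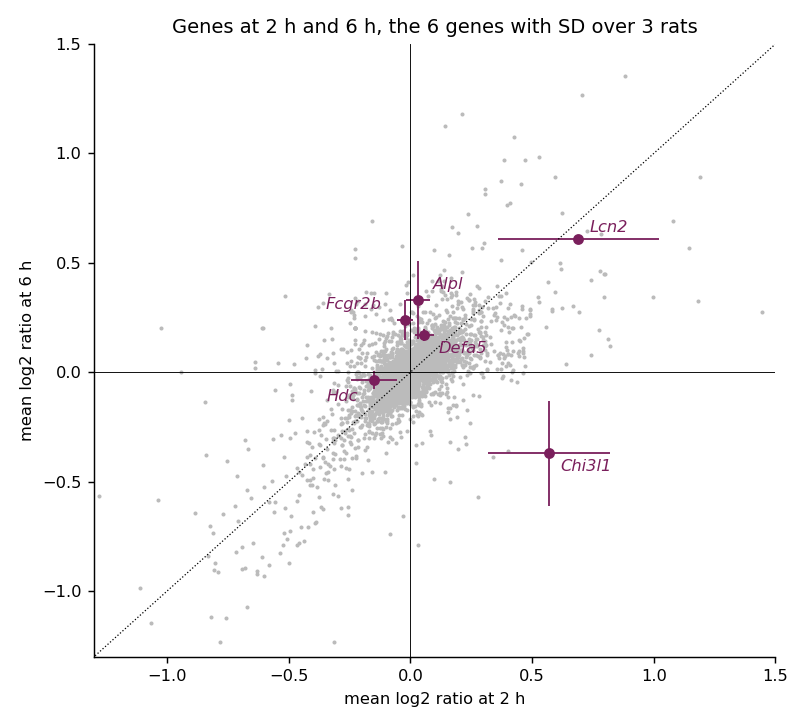
Mean log2 ratio at 2 h (horizontal) against 6 h (vertical) for all named genes (grey points; 12 genes lie outside the axes) and for the 6 genes (purple, bars are SD over 3 rats), with a dotted line of equal means. Lcn2 lies near that line at 0.69 and 0.61, Chi3l1 far below it at 0.57 and -0.37, and Alpl and Fcgr2b above it.

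**Figure D4:**
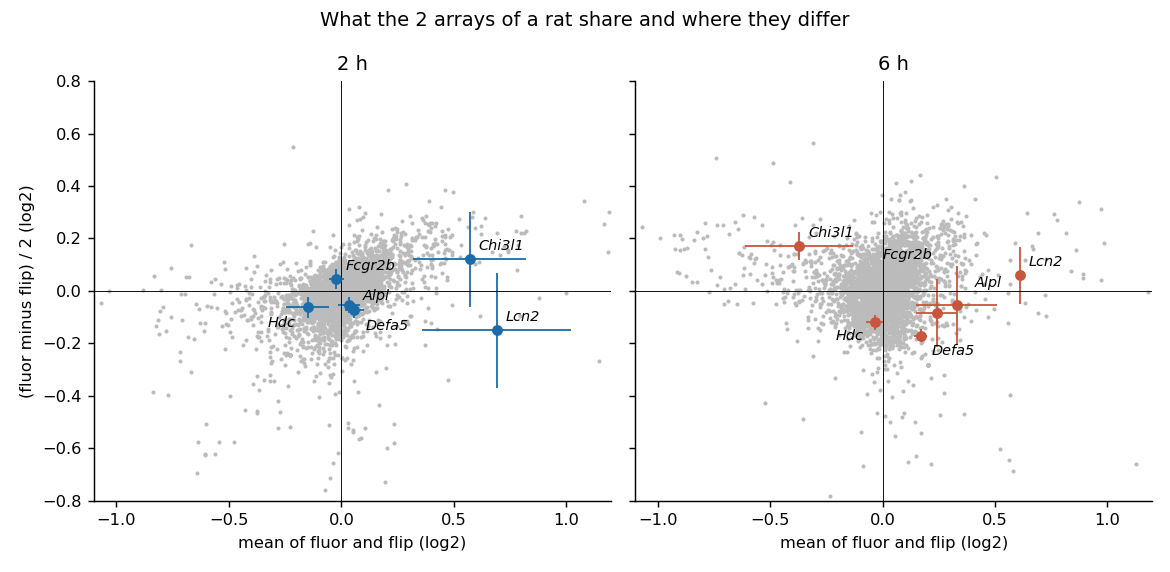
For each time, the mean of the fluor and flip arrays (horizontal, log2) against their halved difference (vertical, log2), over 3 rats with SD bars for the 6 genes and grey points for all named genes (38 at 2 h and 41 at 6 h lie outside the axes). Lcn2 and Chi3l1 lie farther from 0 along the mean than along the difference at both times, while Defa5 at 6 h is at 0.17 and -0.17 and Hdc at 6 h at -0.034 and -0.12.

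The 6 genes did not vary as 1 group over the arrays. Pearson's r over the 12 arrays, given as a description, was 0.88 for Defa5 with Hdc and 0.75 for Alpl with Fcgr2b, was between -0.67 and -0.54 for Chi3l1 with Defa5, Alpl, Hdc and Fcgr2b, and was -0.06 for Lcn2 with Chi3l1. These arrays share rats, control pools and labelling. Of 3899 genes without a repeated value, those most like Chi3l1 over the arrays were Il1b (r = 0.94; 3.90 ± 0.31 at 2 h and 2.05 ± 0.13 at 6 h) and Timp2 (r = 0.93), both higher at 2 h than at 6 h. Alpl was most like Id1 (r = 0.96; 0.033 ± 0.032 and 0.30 ± 0.12), an inhibitor of DNA binding, and Hmox1 (r = 0.94), the inducible heme oxygenase. Fcgr2b was most like Tlr4, the LPS receptor (r = 0.93; -0.012 ± 0.022 and 0.17 ± 0.094), and Ywhae (r = 0.88). Defa5 was most like Uggt1 (r = 0.93) and Ghr (r = 0.91), and Hdc most like Zfp496 (r = 0.95) and Elovl7 (r = 0.94), each of which had its fluor arrays below its flip arrays on average (fluor minus flip, divided by 2, between -0.19 and -0.10). Lcn2 was most like Ptafr (r = 0.95) and Npepps (r = 0.87), which read 1.00 and 1.69 on the flip array of 2 h rat 3. Without that array r was 0.61 and -0.51.

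Genes of the same compartments were tested in the same fit, from lists drawn up with earlier results of these arrays known. Over primary granules, specific and gelatinase granules, surface and secretory vesicles, cytosol and NADPH oxidase, 25 of 65 listed genes other than the 6 were measured. Of these, 7 rose and 2 fell at 2 h, with a median of 0.087 against -0.007 over all genes. At 6 h 10 rose and 4 fell, with a median of 0.022 against 0.0069. At 2 h 9.34% of all genes passed above 0 and 9.82% below, and at 6 h 8.30% and 10.7%.

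Among granule proteins other than Lcn2 and Chi3l1, the protease activator Ctsc, which processes the serine proteases of primary granules, rose at 2 h (0.48 ± 0.082, adjusted p = 0.000491). It also passed above 0 at 6 h (0.17 ± 0.012, limma adjusted p = 0.0177), a call that ended without 6 h rat 2, 4 or 6 (adjusted p = 0.109, 0.0713 and 0.0745). Its means at 2 h and 6 h were 0.69 and 0.33 over fluor arrays and 0.28 and 0.021 over flip arrays. Ctsc was the 1 of 4 primary granule genes to pass at either time. Of the 2 other specific granule genes measured limma passed 0 at 2 h (0 at an unadjusted p under 0.05) and 1 at 6 h, Orm1, above 0. The peptidoglycan receptor Pglyrp1 stood at -0.058 ± 0.086 and at -0.14 ± 0.09 at 6 h. At the surface Il1r2, the decoy receptor for interleukin-1, rose at both times (0.62 ± 0.092, adjusted p = 0.00395; 0.73 ± 0.24, adjusted p = 0.00175), and 2 of 6 surface genes rose and 1 fell at either time. The surface gene that fell was Cr1l (-0.26 ± 0.12 and -0.37 ± 0.043, limma adjusted p = 0.0116 and 0.00285). Its 2 h call ended without 2 h rat 2 (adjusted p = 0.0668). Of 10 cytosol and matrix genes 4 rose and 1 fell at 2 h, and 6 rose and 2 fell at 6 h. Cfl1 fell at both times (-0.40 ± 0.073 and -0.34 ± 0.095, limma adjusted p = 0.00175 and 0.00328). Coro1a fell at 6 h (-0.19 ± 0.062, limma adjusted p = 0.00856), a call that ended without 6 h rat 2 (adjusted p = 0.063). The calcium-binding S100a9 rose by 2.98 ± 0.53 and 2.70 ± 0.44 (adjusted p = 0.000432 and 0.000347), while S100a8, its partner in calprotectin, stood at -0.083 ± 0.1 and -0.053 ± 0.073 (adjusted p = 0.235 and 0.438). S100a9, Il1r2 and Anxa1, another of the cytosol genes that rose at both times, had also been used to read the direction of the ratios. With flip signs turned S100a9 stood at 0.14 and 0.24 (limma adjusted p = 0.281 and 0.0629), and Il1r2 at 0.25 and -0.094 (limma adjusted p = 0.294 and 0.655). Anxa1 in that reading stood at 0.32 and 0.13 (limma adjusted p = 0.175 and 0.511). The granule proteoglycan gene Srgn rose by 0.70 ± 0.16 at 2 h and 1.27 ± 0.17 at 6 h (adjusted p = 0.00161 and 0.000133). Of 3 oxidase genes limma passed 0 at 2 h (2 at an unadjusted p under 0.05) and 1 at 6 h, Rac1, a small GTPase of many cell types, which fell (-0.20 ± 0.057, adjusted p = 0.00633). That call ended without 6 h rat 2 (adjusted p = 0.0535).

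**Figure D5:**
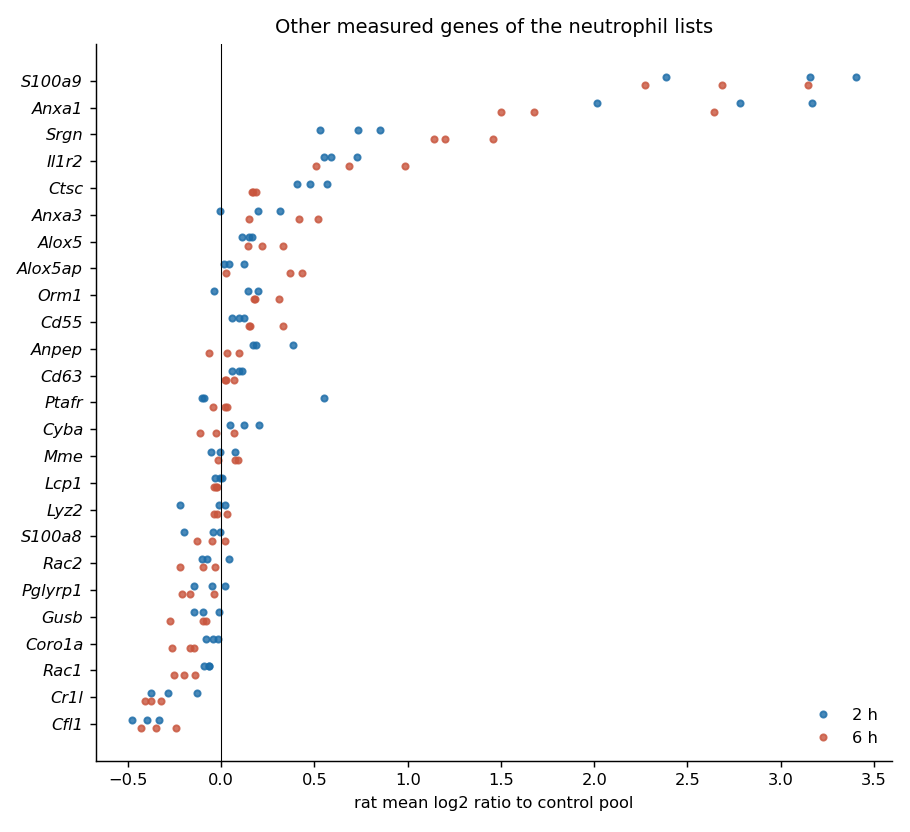
Rat mean log2 ratios (points, 3 per time, 2 h and 6 h) of the 25 other measured genes of the neutrophil lists, ordered by their mean over the 6 rats. S100a9, Anxa1, Srgn, Il1r2, Ctsc, Alox5, Alox5ap, Cd55 and Cd63 lie above 0 in every rat. Cfl1, Cr1l, Coro1a, Rac1 and Gusb lie below 0 in every rat.

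Relatives of single genes were counted against the same shares, 19.2% of all genes past the threshold at 2 h and 19.0% at 6 h. Beside Defa5, limma passed 0 of the 3 other measured antimicrobial genes at either time (0 at an unadjusted p under 0.05), with Defb4 at -0.066 ± 0.08 and -0.093 ± 0.082. Of 4 other lipocalins limma passed 0 at 2 h (0 at an unadjusted p under 0.05), and at 6 h only Orm1, an acute phase plasma protein, at 0.22 ± 0.075 (adjusted p = 0.0258). Its call ended without 6 h rat 2, 4 or 6 (adjusted p = 0.0937, 0.0717 and 0.112). Around Alpl, limma passed 1 of 4 genes of the phosphatase and mineral list at 2 h, Spp1, below 0, and 0 at 6 h (0 at an unadjusted p under 0.05). Around Fcgr2b, 2 of 8 Fc receptor and signalling genes rose and 1 fell at 6 h, led by the related IgG receptor Fcgr2a (0.67 ± 0.22, adjusted p = 0.00288), which stood at 0.27 ± 0.14 at 2 h (adjusted p = 0.0658). Whether these cDNA probes tell Fcgr2b from its relatives was not tested. Around Hdc, limma passed 0 of 4 other histamine genes at 2 h (3 at an unadjusted p under 0.05), and Aldh2, which oxidises aldehydes from many sources, fell at 6 h (-0.40 ± 0.1, adjusted p = 0.00378).

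Markers of other blood cells moved in the same arrays, and their part in the ratios of the 6 genes was not tested. Of the mast cell and basophil list, 4 of 15 genes beside Hdc were measured, with a median between 0.00089 and 0.072 in the 2 h rats and between 0.099 and 0.27 in the 6 h rats. Mcpt9, a mast cell protease numbered 3 probes before Fcgr2b, rose at 6 h (0.57 ± 0.28, adjusted p = 0.00867), and so did Mcpt1 (0.22 ± 0.055, adjusted p = 0.0086). Without 6 h rat 2 both calls ended (adjusted p = 0.0556 and 0.0698), and that of Mcpt1 also without 6 h rat 6 (0.0535). Of 12 B cell genes 2 were measured, with medians between -0.33 and -0.23 at 2 h and between -0.43 and -0.38 at 6 h, and Cd37, a B cell tetraspanin, fell at both times (-0.45 ± 0.08, adjusted p = 0.000704; -0.71 ± 0.033, adjusted p = 8.42e-05). Of 14 T cell genes 4 were measured, with medians between -0.30 and -0.23 and between -0.43 and -0.15. Of 11 monocyte and macrophage genes 2 were measured, C1qb and C1qc, with medians between -0.33 and -0.22 and between -0.46 and -0.16. Both encode C1q subunits, so these medians say little of monocytes as a whole. C1qb fell at both times (-0.20 ± 0.044 and -0.21 ± 0.029). Its ratios differed with the labelling, with means of -0.38 and -0.33 over fluor arrays and -0.024 and -0.081 over flip arrays. Of 4 NK and cytotoxic genes 2 were higher at 2 h, Gzmc and Il2rb, and 2 at 6 h, Gzmc and Prf1, and these calls held with any 1 rat left out. Platelet genes gave 1 of 2 higher at 2 h and 0 at 6 h in limma (1 at an unadjusted p under 0.05), and erythroid genes 4 higher and 1 lower of 9 at 2 h and 1 higher and 2 lower at 6 h. Paneth cell and intestinal genes beside Defa5 gave 1 of 2 lower at 2 h and 0 at 6 h in limma (0 at an unadjusted p under 0.05). Of the platelet, erythroid and Paneth cell calls, the erythrocyte anion exchanger Slc4a1 at 2 h was the 1 that held with any 1 rat left out. At 6 h Fcgr2b was above 0 in the same rats in which Cd37 and C1qb were below 0, and a relation between them was not tested.

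Over all the lists 83 other genes were tested, and 13 of 26 calls at 2 h and 17 of 32 at 6 h ended when some 1 rat was left out (adjusted p from 0.0503 to 0.233). The other 13 calls at 2 h and 15 at 6 h passed whichever rat was omitted. At 2 h they were Ctsc, Il1r2, S100a9, Anxa1, Srgn, Tf, Fth1, Gzmc, Il2rb and Slc4a1 above 0. Below 0 they were Cfl1, Cd37 and C1qb. At 6 h they were Il1r2, S100a9, Anxa1, Srgn, Alox5, Fth1, Fcgr2a, Gzmc and Prf1 above 0. Below 0 they were Cr1l, Cfl1, Aldh2, Cd37, Cd3d and C1qb. After turning the flip signs, 14 of these 58 calls passed with the same sign and 2 with the other.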

How the data were processed

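Values are the series matrix's log2 ratios, 1 per probe and array, which the authors deposited from 2-colour arrays; neither labels nor file header name dyes, scanner, background correction or normalization. Base 2 was taken for these ratios, and the fold values rest on it. Array medians lay between -0.0202 and 0.00827. A single repeated value stood on 242 to 298 probes per array, but on 0 probes of the 6 genes. The number of arrays limits the precision.

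Of 7200 probes 4190 had 1 symbol in the 2007 platform annotation, updated by gene identifier through the GRCr8 table (4184 matched), 46 had several and 2964 none; probes of a gene were averaged, giving 3939 genes. Each rat's fluor and flip values were averaged. Rat means of all genes were fitted with limma 3.58.1 in R 4.3.3 (lmFit, eBayes; 6 rats, 4 residual degrees of freedom) for 2 h, 6 h and 6 h minus 2 h, with Benjamini-Hochberg adjustment over all genes. A control pool is 1 control sample, so its own spread is left out. The fit was tested on simulated rat means. These held no labelling effect and no shared control pool, so that test does not bear on either. P-values measure the spread between these rats. Members and lists were chosen with earlier results of these data known. Named are the 6 genes, list genes past the threshold (or up to 2 with the largest means), the 2 genes most like each of the 6 over 12 arrays, and probes within 5 numbers with a mean beyond 1 in size.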

Additional observations from a re-analysis of the deposited data

Results flagged for a closer look

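The flip array of 2 h rat 3 read 1.46 for Lcn2, well above the next highest 2 h array at 0.66. This is a description with no test, since the gene was chosen on these ratios and the arrays of a rat share their RNA. On that array Chi3l1 read 0.074, its lowest value at 2 h, and Hdc 0.056, its highest at 2 h.

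Chi3l1 was above 0 in every 2 h rat and below 0 in every 6 h rat, with a difference of -0.94 (6 h minus 2 h). For 6 h minus 2 h limma passed 0 of the 6 genes, Chi3l1 included. Nothing is read from that, because the gene was chosen with these ratios known.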

How the results depend on the processing

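Across 16 alternatives the mean ratios of the 6 genes moved by less than the spread between rats in 216 of 252 recomputed values. These include all values with any 1 rat left out, but dropping 1 rat cannot move a mean by as much as the SD of its rats. Setting the repeated value to missing could not move them either, since no probe of the 6 genes held it. The fit with rats as random blocks returned the main means by design. The count of 216 is therefore not a measure of robustness. With the flip arrays multiplied by -1, Chi3l1 stood at 0.17 at 6 h and its 6 h minus 2 h difference at 0.053, Lcn2 at 2 h stood at -0.15, and at 6 h Defa5 at -0.17, Alpl at -0.055, Fcgr2b at -0.085, Aldh2 at 0.036, Alox5 at -0.12, Anxa3 at -0.10, Cd37 at 0.0072, Cd55 at -0.048, Coro1a at 0.089, Il1r2 at -0.094, Mcpt1 at -0.23, Orm1 at -0.12, Prf1 at -0.067 and Rac1 at 0.057, with Cfl1 at 0.016 at 2 h and 0.054 at 6 h, all of the other sign. Mcpt1 at 6 h stood at -0.0053 on the fluor arrays only, and on the flip arrays only Hba-a1 stood at 0.077 and 0.010 at the times and Pla2g2a at 0.017 at 2 h, against the sign of the mean.

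The number of probes passed by limma was 920 at 2 h, 1028 at 6 h and 15 for 6 h minus 2 h. Fluor arrays only gave 1883, 1859 and 2, flip arrays only 301, 1711 and 8, a trend with a robust prior 446, 556 and 0 (1132 at an unadjusted p under 0.05), and single arrays with a labelling term and rats as random blocks 1836, 1833 and 292. Flip arrays multiplied by -1 gave 2406 at 6 h and 0 for 6 h minus 2 h (838 at an unadjusted p under 0.05). For 6 h minus 2 h scaling gave 2, quantile normalization 5, the repeated value set to missing 47 and neighbouring probes subtracted 7. Leaving out the flip array of 2 h rat 3, chosen after seeing the data, gave 1499 at 2 h and 158 for 6 h minus 2 h. Leaving out 1 rat gave 315 (without 2 h rat 2) to 765 at 2 h, 311 (without 6 h rat 2) to 1301 at 6 h, and 4 to 154 (without 2 h rat 3) for 6 h minus 2 h. The cause was not tested. No paired analysis was possible because the times share only rat number 2. Each of the 6 genes has 1 probe, so the choice between probes had no alternative.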

Other observations

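Iron handling genes were examined because lipocalin 2 withholds siderophore-bound iron. Of 20 listed genes 9 were measured. The iron storage subunit Fth1 rose at both times (0.50 ± 0.11, limma adjusted p = 0.0108, above 0 on 6 of 6 arrays; 0.51 ± 0.25, adjusted p = 0.00902, above 0 on 4 of 6 arrays). Its ratios differed with the labelling, with means of 0.87 and 0.94 over fluor arrays and 0.12 and 0.069 over flip arrays. The transferrin gene Tf rose at 2 h (1.44 ± 0.41, adjusted p = 0.0012) and stood at 0.27 ± 0.21 at 6 h (adjusted p = 0.21). The iron exporter Slc40a1 fell at 6 h (-0.15 ± 0.046, adjusted p = 0.0258), a call that ended without any 1 of the 6 h rats (adjusted p from 0.0684 to 0.13).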
